A study of Homo sapiens with 12 samples.

Results

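Aminoacyl-tRNA synthetases were followed as 39 genes in 12 RNA-seq libraries of 2 human acute myeloid leukemia cell lines after knockdown of PSPC1 or PU.1. The genes were taken by symbol: 23 encode cytosolic synthetases or the scaffold proteins that hold some of them in a complex, and 16 encode the mitochondrial enzymes, whose symbols end in 2. All 39 were found in both deposited count tables, among the 60648 genes listed there, and all 39 passed the filter on low counts in every main fit. PSPC1 is an RNA-binding protein of nuclear paraspeckles, and PU.1, encoded by SPI1, is an ETS-family transcription factor of myeloid cells.

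There were 6 groups of 2 libraries, and every group carried a lentiviral hairpin. The groups were MOLM13 with the PSPC1 hairpin and MOLM13 with a control hairpin, then OCIAML5 with the PSPC1 hairpin and OCIAML5 with a control hairpin from the same experiment, then OCIAML5 with the PU.1 hairpin and a second set of OCIAML5 control-hairpin cells from that experiment. MOLM13 was grown in RPMI medium with 10% FBS, and OCIAML5 in alpha-MEM with 20% FBS and 10 ng/mL of human GM-CSF, so line and medium cannot be told apart. Cells were selected with puromycin or sorted for GFP after infection, and the labels do not say which library had which. Hairpin numbers per gene are not stated either, nor whether replicates were cultured separately, so p-values here rest on a spread that may be technical. Libraries were of messenger RNA made with a stranded kit. They held 15.4 to 22.8 M counts each in the PSPC1 experiment and 26.3 to 39.7 M in the PU.1 experiment.

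Each synthetase joins 1 kind of amino acid to its transfer RNA, the step that fixes the genetic code, and separate enzymes do this in the cytosol and in mitochondria for most amino acids. In animal cells several cytosolic enzymes sit in a multi-synthetase complex built on 3 scaffold proteins, while the others are free. Many cytosolic synthetase genes are known to be switched on by ATF4, a transcription factor that responds to amino acid shortage and other stress, and that binds the letters TGATGNAA or close variants near their starts. The mitochondrial enzymes are encoded in the nucleus and imported.

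The targeted genes followed their labels. PSPC1 was at 27.7 and 28.6 CPM (reads per gene scaled to library depth) in PSPC1-knockdown MOLM13 cells, against 133 and 137 CPM in control MOLM13 cells. It was at 18.8 and 19.2 CPM in PSPC1-knockdown OCIAML5 cells, against 100.3 and 100.2 CPM in their controls. SPI1 was at 46.4 and 45.2 CPM in PU.1-knockdown OCIAML5 cells, against 219.7 and 198 CPM in their controls. PSPC1 was itself lower in the PU.1 knockdown, at 58.4 and 56.9 CPM against 102 and 109 CPM (log2 fold change -0.89 ± 0.055, with its standard error as in all such pairs here, adjusted p = 7.4e-26). SPI1 was higher after PSPC1 knockdown in MOLM13, at 333 and 363 CPM against 259.7 and 249 CPM in controls. The cells matched their label as myeloid: 12 of 14 myeloid and leukemia markers had a mean above 1 CPM, CD14 and KIT being at or near 0, and none of 4 erythroid or 4 epithelial markers did. Among markers of T and NK cells, 1 of 6 (NKG7) passed that level. Of all genes tested, 57.2% passed the test after PSPC1 knockdown in MOLM13, 56.1% after PSPC1 knockdown in OCIAML5 and 60.5% after PU.1 knockdown, and the counts below are read against the shares in each direction.

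Fragments of the start regions of 8 cytosolic members are shown because the results below group genes by the letters in them. RefSeq start windows of GRCh38.p14, 250 bases before to 50 after each start, were in the table used here for 33 of the 39 members, with 45 windows in all; LARS1, VARS1, YARS1, TARS3, AARS2 and VARS2 had none in it. Searched on both strands, TGATGNAA was found in 7 of the 19 cytosolic members with a window and in 1 of the 14 mitochondrial ones (YARS2). Over all 27305 genes in the table, 4.46% had it in a window (3.62% of the 35116 windows). The 7 cytosolic matches are shown first, each as 30 bases read 5′ to 3′ on the strand of the gene with the match in capitals, because these 7 genes are compared with the others below. TTGCATCA and TTTCATCA are the letters as read from the opposite strand. The last line shows WARS1, whose window held the interferon-response letters (GAAA, 2 bases of any kind, GAAA) in capitals; 4.38% of all genes had these in a window, and EARS2 was the other member among them.
AARS1: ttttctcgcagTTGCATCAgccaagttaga
CARS1: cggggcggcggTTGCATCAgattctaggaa
GARS1: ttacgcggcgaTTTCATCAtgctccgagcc
IARS1: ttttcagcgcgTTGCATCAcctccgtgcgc
MARS1: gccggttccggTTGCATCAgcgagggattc
NARS1: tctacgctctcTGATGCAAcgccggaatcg
TARS1: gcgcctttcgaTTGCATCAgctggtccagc
WARS1: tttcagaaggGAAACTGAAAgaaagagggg

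In GRCh38.p14 these windows are chr16:70289675-70289704 (AARS1, minus strand), chr11:3057407-3057436 (CARS1, minus strand), chr7:30594834-30594863 (GARS1, plus strand), chr9:92293692-92293721 (IARS1, minus strand), chr12:57488053-57488082 (MARS1, plus strand), chr18:57621804-57621833 (NARS1, minus strand), chr5:33440956-33440985 (TARS1, plus strand) and chr14:100375383-100375412 (WARS1, minus strand). The match began 187 bases before the start in AARS1, 33 before in GARS1, 13 before in IARS1, 4 before in MARS1 and 2 before in CARS1. In TARS1 and NARS1 it began 3 and 15 bases after the start. CACGTG, the letters bound by MYC and related factors, was in 2 cytosolic members (IARS1, AIMP2) and 3 mitochondrial ones (CARS2, EARS2, MARS2), and in 8.77% of all genes. A match describes these letters in this window and is no measure of binding.

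PSPC1 knockdown lowered most cytosolic members in both lines. Their summed level was 3671 and 3694 CPM in PSPC1-knockdown MOLM13 cells, against 5501 and 5524 CPM in MOLM13 controls. In OCIAML5 it was 3354 and 3293 CPM in PSPC1-knockdown cells, against 5545 and 5554 CPM in the controls of that experiment. In MOLM13, 18 of the 23 fell and 4 rose, with 1 not passing the test (edgeR quasi-likelihood test, Benjamini-Hochberg adjusted p under 0.05). Over all 16457 genes tested, 29.6% fell and 27.6% rose. The median log2 fold change was -0.62 for the 23, and 0.01 over all genes. In OCIAML5, 18 fell and 3 rose, with 2 not passing, against 28.6% and 27.6% of all genes, and the medians were -0.69 and 0.02. The same 18 genes were lower in both lines, where 20.1% of all genes tested were, and RARS1, AIMP1 and TARS3 were higher in both, where 17.1% of all genes were. CPM is a share of each library, and in bulk RNA less RNA per cell cannot be told apart from fewer cells that express a gene.

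**Figure D1:**
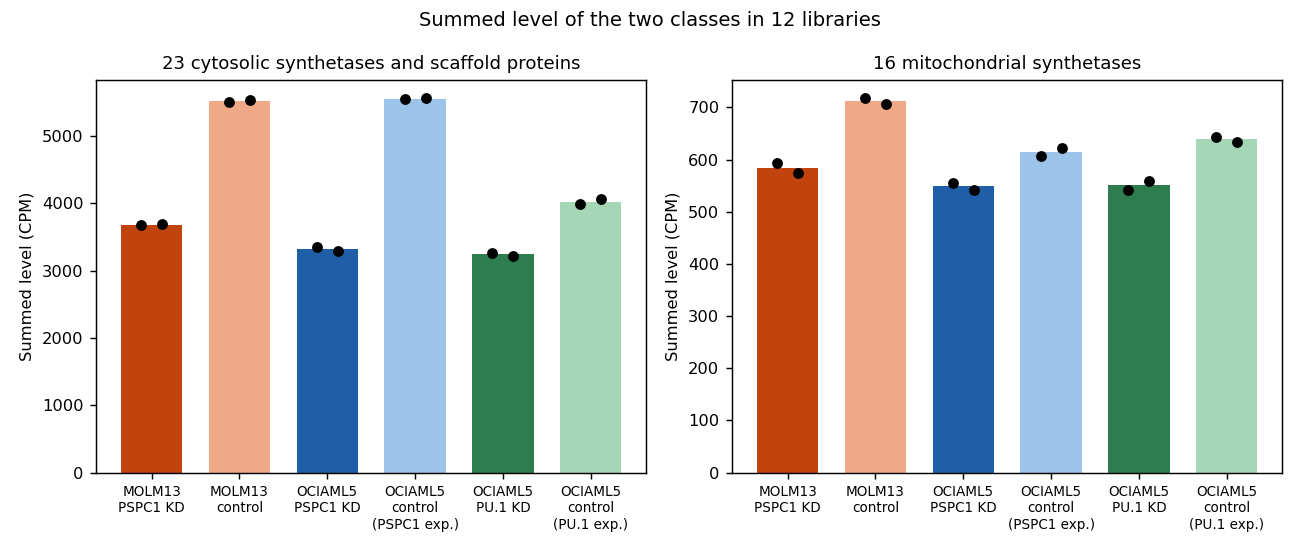
Summed CPM of the 23 cytosolic and scaffold genes (left) and the 16 mitochondrial genes (right) in the 6 groups; bars are means of 2 libraries, points the libraries, and both axes start at 0. The cytosolic sums of both PSPC1-knockdown groups lie between 3293 and 3694 CPM, below their controls at 5501 to 5554 CPM, and the PU.1-experiment controls lie lower, at 3982 and 4056 CPM.

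AARS1, the alanyl-tRNA synthetase (GENCODE v29 gene AARS, GRCh38, chr16:70252295-70289543, minus strand), fell the most among the cytosolic members in both lines. It was at 120.4 and 124 CPM in PSPC1-knockdown MOLM13 cells, against 329 and 357 CPM in controls. The OCIAML5 values were 124 and 123 CPM with PSPC1 knockdown, against 396 and 415 CPM in controls. The knockdown libraries of the lines lay within a few CPM of each other and far below every control, with log2 fold changes of -1.498 ± 0.047 in MOLM13 (adjusted p = 3.9e-43) and -1.69 ± 0.046 in OCIAML5 (adjusted p = 3.4e-47).

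GARS1, the glycyl-tRNA synthetase, serves both compartments from 1 gene (chr7:30594681-30634033, plus strand). Its levels were 165 and 154 CPM in PSPC1-knockdown MOLM13, against 335 and 349 CPM in controls. Those in OCIAML5 were 146 and 144 CPM in PSPC1-knockdown cells, against 364 and 349 CPM in controls. The groups did not overlap in either line, and the log2 fold changes were -1.11 ± 0.046 and -1.27 ± 0.046 (adjusted p = 1.4e-35 in MOLM13 and 1.6e-39 in OCIAML5). KARS1, the lysyl enzyme that also serves both compartments and belongs to the complex, also fell, to 189 and 191 CPM in PSPC1-knockdown MOLM13, against 290.3 and 293 CPM in controls, and to 181 and 164 CPM in PSPC1-knockdown OCIAML5, against 288 and 277 CPM in controls.

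Among the other free enzymes, YARS1 (tyrosyl) was at 125 and 136 CPM in PSPC1-knockdown MOLM13 cells, against 308 and 304 CPM in controls (-1.24 ± 0.047, adjusted p = 9.4e-38). Its OCIAML5 levels were 155 and 168 CPM with PSPC1 knockdown, against 329 and 334 CPM in controls (-1.02 ± 0.046, adjusted p = 4.0e-33). CARS1 (cysteinyl) had 37.9 and 44.1 CPM in PSPC1-knockdown MOLM13 against 76.2 and 72.4 CPM in controls, and 44.7 and 43.5 CPM in PSPC1-knockdown OCIAML5 against 95.7 and 92.5 CPM in controls. TARS1, the main threonyl enzyme of the cytosol, was at 215 and 204 CPM in PSPC1-knockdown MOLM13 against 373 and 377 CPM in controls, and at 321 and 306 CPM in PSPC1-knockdown OCIAML5 against 489 and 502 CPM in controls (-0.64 ± 0.041). The falls of TARS1, CARS1 and NARS1 in OCIAML5 depended on which control cells were used, and TARS1 was higher than the PU.1-experiment controls, which were at 212 and 230.2 CPM (log2 difference 0.51). Of the 13 free enzymes, 11 fell and 1 rose in each line. HARS1 (histidyl) and NARS1 (asparaginyl) were the 2 of the 11 with the smallest falls, at -0.44 ± 0.070 and -0.43 ± 0.043 in MOLM13 and -0.19 ± 0.070 and -0.36 ± 0.042 in OCIAML5. The HARS1 call in OCIAML5 was lost without knockdown replicate 1 (adjusted p = 0.181) or control replicate 2 (adjusted p = 0.0544), and with scaling by library size alone (adjusted p = 0.203). The member that rose was TARS3 (TARSL2 in older annotation), a second, less abundant threonyl enzyme. TARS3 was at 16.3 and 16.99 CPM in PSPC1-knockdown MOLM13, against 11.4 and 13.6 CPM in controls, and at 24.5 and 21.7 CPM in PSPC1-knockdown OCIAML5, against 15.3 and 13.9 CPM in controls. The log2 fold changes of TARS3 were 0.41 ± 0.14 and 0.68 ± 0.14 (adjusted p = 0.011 in MOLM13 and 1.0e-05 in OCIAML5). The MOLM13 call was lost without knockdown replicate 2 (0.376, adjusted p = 0.0726) or without control replicate 1 (0.266, adjusted p = 0.22). SARS1, the seryl enzyme, was the free enzyme that passed the test in neither line nor in the PU.1 knockdown, with log2 differences of -0.08 ± 0.060, -0.05 ± 0.058 and 0.08 ± 0.055 in these 3 comparisons.

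WARS1, the tryptophanyl enzyme and a gene known to respond to interferon, fell in both lines. It was at 119 and 112 CPM in PSPC1-knockdown MOLM13, against 179 and 174 CPM in controls, and at 107 and 99.2 CPM in PSPC1-knockdown OCIAML5, against 223 and 240.3 CPM in controls. The fall was larger in OCIAML5 (-1.14 ± 0.051) than in MOLM13 (-0.62 ± 0.052), a difference of 0.52 ± 0.073 in MOLM13 minus OCIAML5 (adjusted p = 1.2e-08). In the same libraries 19 of 26 interferon-stimulated genes measured rose and 2 fell in MOLM13, and 18 rose and 3 fell in OCIAML5, where 27.6% of all genes rose in each line. The fall of WARS1 in OCIAML5 depended on which control cells were used, as given below.

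Of the 7 enzymes held in the multi-synthetase complex, 5 fell in each line: EPRS1, LARS1, IARS1, MARS1 and KARS1. Their log2 fold changes ran from -0.95 to -0.57 in MOLM13 and from -1.11 to -0.64 in OCIAML5, with MARS1 (methionyl) the largest and EPRS1, which joins both glutamate and proline, the smallest in each. RARS1, the arginyl enzyme of the same complex, moved the other way. It was at 140.4 and 145 CPM in PSPC1-knockdown MOLM13, against 118 and 122 CPM in controls (0.24 ± 0.054, adjusted p = 1.2e-04). In OCIAML5 it was at 115 and 116 CPM with PSPC1 knockdown, against 89.7 and 91.3 CPM in controls (0.38 ± 0.056, adjusted p = 1.2e-08). QARS1, the glutaminyl enzyme, rose in MOLM13, with 459 and 457 CPM in PSPC1-knockdown cells against 372 and 375 CPM in controls (0.28 ± 0.040, adjusted p = 4.0e-09). In OCIAML5 QARS1 had 286 and 286 CPM with PSPC1 knockdown against 305 and 309 CPM in controls and did not pass (-0.08 ± 0.041, adjusted p = 0.083); the difference between lines was 0.36 ± 0.057 (adjusted p = 2.4e-07).

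The 3 scaffold proteins did not move together. AIMP1, which binds the arginyl and glutaminyl enzymes in the complex, rose slightly, to 135 and 133 CPM in PSPC1-knockdown MOLM13, against 113 and 114 CPM in controls, and to 104 and 108 CPM in PSPC1-knockdown OCIAML5, against 92.5 and 93.4 CPM in controls (adjusted p = 2.5e-04 in MOLM13 and 0.0011 in OCIAML5). AIMP2, the core scaffold, fell to 21.7 and 18.7 CPM in PSPC1-knockdown MOLM13, against 26.2 and 27.3 CPM in controls, and to 19.01 and 20.7 CPM in PSPC1-knockdown OCIAML5, against 26.1 and 26.998 CPM in controls; its MOLM13 call was lost without knockdown replicate 2 (adjusted p = 0.0633). EEF1E1, the smallest of the 3, had the second largest fall in MOLM13, at 7.14 and 5.92 CPM in PSPC1-knockdown cells against 17.8 and 17.7 CPM in controls (-1.46 ± 0.18, adjusted p = 9.4e-11). In OCIAML5 it was at 4.59 and 6.17 CPM with PSPC1 knockdown against 9.63 and 8.66 CPM in controls (-0.76 ± 0.19, adjusted p = 4.9e-04). In GENCODE v29, 18.7% of the EEF1E1 exon bases lie under a readthrough gene on the same strand, and 28.9% of those of AIMP2 under EIF2AK1 on the opposite strand, so counts of both can be shared with those genes. MARS1, WARS1, AIMP1 and HARS2 share 10.6% to 12.4% with genes on the opposite strand; whether counting used the strand is not given in the sources.

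**Figure D2:**
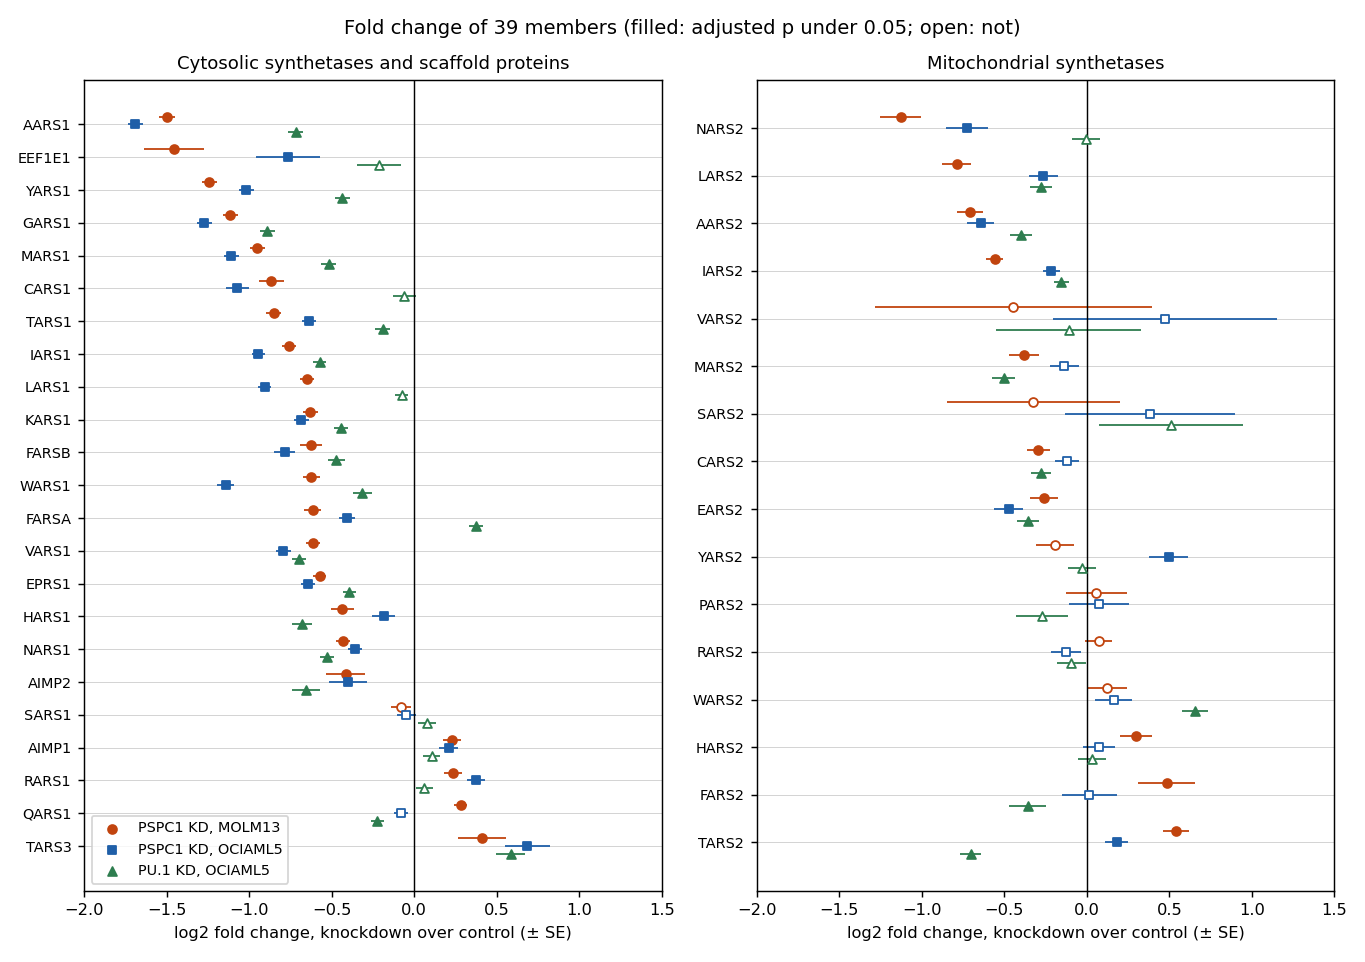
Log2 fold changes (knockdown over control, with standard errors) of the 23 cytosolic and scaffold genes (left) and 16 mitochondrial genes (right), ordered by the value in MOLM13; circles are PSPC1 knockdown in MOLM13, squares PSPC1 knockdown in OCIAML5 and triangles PU.1 knockdown in OCIAML5, filled where the adjusted p was under 0.05. AARS1 is at the top left with -1.498 and -1.69 after PSPC1 knockdown, while RARS1, AIMP1 and TARS3 lie right of 0 in both lines.

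Among the mitochondrial members, 10 of 16 passed in MOLM13 and 7 of 16 in OCIAML5, where 57.2% and 56.1% of all genes did. Their summed level was 594 and 574 CPM in PSPC1-knockdown MOLM13, against 717 and 706 CPM in controls. In OCIAML5 it was 556 and 542 CPM with PSPC1 knockdown, against 606 and 622 CPM in controls. In MOLM13, 7 of 16 fell and 3 rose (median -0.28), against 29.6% and 27.6% of all genes. In OCIAML5, 5 of 16 fell and 2 rose (median -0.05), against 28.6% and 27.6%. The share that fell in OCIAML5 was thus close to that of all genes. The cytosolic sum was 6.18 and 6.44 times the mitochondrial one in PSPC1-knockdown MOLM13 libraries, against 7.67 and 7.83 times in control MOLM13. The ratio was 6.04 and 6.08 in PSPC1-knockdown OCIAML5, against 9.15 and 8.92 in controls. The ratio was lower in every knockdown library than in every control of its line; 2 libraries against 2 are too few for an exact test of it to pass the threshold, so none was made. Most cytosolic members were also the more abundant per length: in MOLM13 the cytosolic median was 33.4 CPM per kb of exon in PSPC1-knockdown cells and 38.4 in controls, and the mitochondrial one 7.13 in knockdown cells and 8.86 in controls.

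NARS2, the mitochondrial asparaginyl enzyme, fell the most of the mitochondrial members in both lines. It was at 15.8 and 13.7 CPM in PSPC1-knockdown MOLM13, against 31.5 and 32.4 CPM in controls (-1.13 ± 0.13, adjusted p = 8.7e-13). In OCIAML5 it was at 13.9 and 13.7 CPM with PSPC1 knockdown, against 21.7 and 24.8 CPM in controls (-0.73 ± 0.13, adjusted p = 6.3e-07). AARS2 (alanyl), whose cytosolic counterpart fell the most, was at 48.7 and 46.3 CPM in PSPC1-knockdown MOLM13 against 76.1 and 77.6 CPM in controls, and at 30.97 and 32.7 CPM in PSPC1-knockdown OCIAML5 against 50.2 and 50.6 CPM in controls. EARS2 (glutamyl) was at 41.8 and 44.3 CPM in PSPC1-knockdown MOLM13 against 50.3 and 51.9 CPM in controls, and at 33.2 and 30.99 CPM in PSPC1-knockdown OCIAML5 against 46.4 and 44.2 CPM in controls. LARS2 (leucyl) was at 36.1 and 31.01 CPM in PSPC1-knockdown MOLM13 against 58.8 and 55.9 CPM in controls, and at 33.8 and 33.99 CPM in PSPC1-knockdown OCIAML5 against 42.1 and 40.3 CPM in controls. IARS2 (isoleucyl), with the highest level per length of the mitochondrial members in MOLM13 controls (41.8 CPM per kb), completed the 5 that fell in both lines; CARS2 and MARS2 fell in MOLM13. The EARS2 call in MOLM13 was lost without knockdown replicate 1 (adjusted p = 0.059), and the LARS2 call in OCIAML5 without control replicate 1 (adjusted p = 0.0612).

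TARS2, the mitochondrial threonyl enzyme, rose after PSPC1 knockdown. It was at 56.1 and 52.4 CPM in PSPC1-knockdown MOLM13, against 35.3 and 38.98 CPM in controls (0.54 ± 0.079, adjusted p = 1.1e-08), and at 81.03 and 77.6 CPM in PSPC1-knockdown OCIAML5, against 69.5 and 72.8 CPM in controls (0.18 ± 0.071, adjusted p = 0.026). The OCIAML5 call was lost without knockdown replicate 1 (adjusted p = 0.202) or without control replicate 1 (adjusted p = 0.17). FARS2 (phenylalanyl) and HARS2 (histidyl) rose in MOLM13. FARS2 was at 10.9 and 12.9 CPM in PSPC1-knockdown cells against 7.97 and 9.03 CPM in controls, a call lost without knockdown replicate 2 (adjusted p = 0.183) or control replicate 1 (adjusted p = 0.148). HARS2 was at 44.4 and 37.2 CPM in PSPC1-knockdown cells against 32.8 and 32.9 CPM in controls, a call lost without knockdown replicate 1 (adjusted p = 0.306). YARS2 (tyrosyl) rose in OCIAML5, with 24.9 and 25.4 CPM in PSPC1-knockdown cells against 18.1 and 18.1 CPM in controls (0.50 ± 0.12, adjusted p = 2.2e-04). This call was lost against the PU.1-experiment controls (0.094, adjusted p = 0.398). In MOLM13 YARS2 had 23.1 and 22.4 CPM in PSPC1-knockdown cells against 28.2 and 23.2 CPM in controls and did not pass. PARS2, RARS2, WARS2, SARS2 and VARS2 passed in neither line. SARS2 was at 0.52 to 1.72 CPM and VARS2 at 0.242 to 0.979 CPM over the 12 libraries, and 46.2% and 22% of their exon bases lie under other genes on the same strand, so a change in these 2 was not detectable at this depth.

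Fewer members differed between lines than responded in either. Of the cytosolic members, 6 had a higher and 5 a lower response in MOLM13 than in OCIAML5, against 12.5% and 18.2% of all genes (30.7% in either direction). Of the mitochondrial members 1 was higher and 3 lower. The cytosolic count of 11 was 5 without OCIAML5 knockdown replicate 2, and 7 without MOLM13 knockdown replicate 2 or MOLM13 control replicate 1. LARS1 had a smaller fall in MOLM13 (-0.65 ± 0.041) than in OCIAML5 (-0.91 ± 0.041), a difference of 0.26 ± 0.058 (adjusted p = 2.5e-04). LARS2, its mitochondrial counterpart, differed in the other direction (-0.53 ± 0.13, adjusted p = 5.1e-04). Control cells of the lines were compared with the OCIAML5 controls of the PSPC1 experiment alone, and the lines differed in 17 cytosolic members (8 higher and 9 lower in MOLM13) and 9 mitochondrial ones (7 higher and 2 lower), against 30% of all genes higher, 30.7% lower and 60.7% in either direction. The largest were EEF1E1, higher in MOLM13 (0.95 ± 0.17), TARS2, lower in MOLM13 (-0.95 ± 0.077), and RARS2, the mitochondrial arginyl enzyme, at 51.6 and 52.6 CPM in MOLM13 controls against 29.8 and 29.8 CPM in OCIAML5 controls (0.80 ± 0.088). For AARS1, CARS1, LARS1, MARS1, SARS1, TARS1, WARS1 and YARS1, all called lower in MOLM13, the order of the lines depended on the OCIAML5 control group. FARSB, the other cytosolic member called lower, had a mean of 89.9 CPM in MOLM13 controls. This was below both OCIAML5 control groups (122 CPM in the PSPC1 experiment and 104 CPM in the PU.1 experiment). The MOLM13 controls were at 329 and 357 CPM for AARS1, 373 and 377 CPM for TARS1 and 179 and 174 CPM for WARS1. These lie below the PSPC1-experiment OCIAML5 controls (396 and 415, 489 and 502 and 223 and 240.3 CPM) and above the PU.1-experiment ones (167 and 171, 212 and 230.2 and 72.5 and 75.3 CPM).

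PU.1 knockdown in OCIAML5 also lowered most cytosolic members. Their sum was 3258 and 3223 CPM in PU.1-knockdown cells, against 3982 and 4056 CPM in the controls of that experiment. Of the 23, 15 fell and 2 rose (median -0.39), against 30.9% and 29.5% of all 16861 genes tested (median 0.02). Of the 16 mitochondrial members, 8 fell and 1 rose (median -0.21), and their sum was 543 and 559 CPM in PU.1-knockdown cells, against 644 and 634 CPM in controls. The cytosolic to mitochondrial ratio was 6.01 and 5.77 with PU.1 knockdown and 6.19 and 6.39 in controls, with little distance between the groups. Scaling by library size alone moved the median of all genes by 0.15 in log2 and turned their split to 6583 higher and 3995 lower; the cytosolic split was then 13 lower and 5 higher, and the mitochondrial one 4 lower and 1 higher.

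GARS1 and AARS1 fell the most among the cytosolic members after PU.1 knockdown. GARS1 was at 101 and 96.98 CPM in PU.1-knockdown cells, against 177 and 186 CPM in controls (-0.89 ± 0.047, adjusted p = 6.5e-30). AARS1 was at 104 and 103 CPM in PU.1-knockdown cells, against 167 and 171 CPM in controls (-0.72 ± 0.047, adjusted p = 1.8e-24). VARS1 (valyl) came next, at 192 and 187 CPM against 319.8 and 289 CPM in controls (-0.70 ± 0.043); it had also fallen with PSPC1 knockdown, to 162 and 149 CPM in OCIAML5, against 275 and 272 CPM in controls. KARS1 fell to 209.5 and 207 CPM in PU.1-knockdown cells, against 281 and 279.9 CPM in controls. AIMP2 fell to 19.5 and 20.2 CPM in PU.1-knockdown cells, against 32.7 and 29.3 CPM in controls, and WARS1 to 57.8 and 62.2 CPM in PU.1-knockdown cells, against 72.5 and 75.3 CPM in controls. CARS1, LARS1 and EEF1E1, which fell in both lines after PSPC1 knockdown, did not pass the test after PU.1 knockdown. CARS1 was at 37.3 and 39.999 CPM in PU.1-knockdown cells and 42.5 and 37.5 CPM in controls, with overlapping groups (-0.06 ± 0.071, adjusted p = 0.48). TARS3 rose here too, to 28.6 and 26.8 CPM in PU.1-knockdown cells, against 19.6 and 17.04 CPM in controls (0.58 ± 0.088, adjusted p = 1.5e-08).

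FARSA and TARS2 were called in opposite directions by the PSPC1 and PU.1 knockdowns of OCIAML5. QARS1 and FARS2 were called higher after PSPC1 knockdown in MOLM13 and lower after PU.1 knockdown in OCIAML5, where line and knockdown differ together. Neither was called after PSPC1 knockdown in OCIAML5, and within that line their difference of effect, PU.1 minus PSPC1, did not pass (adjusted p = 0.082 for QARS1 and 0.11 for FARS2). FARSA is the alpha subunit of the cytosolic phenylalanyl enzyme and FARSB its beta subunit. FARSA fell after PSPC1 knockdown, with 131 and 139 CPM in PSPC1-knockdown MOLM13 against 209.9 and 200.3 CPM in controls, and 124 and 126 CPM in PSPC1-knockdown OCIAML5 against 169 and 167 CPM in controls. After PU.1 knockdown it rose to 306 and 309 CPM, against 238 and 231 CPM in controls (0.37 ± 0.040, adjusted p = 1.6e-13). FARSB fell in all 3 (-0.62 ± 0.065, -0.79 ± 0.062 and -0.47 ± 0.052), so the 2 subunits of 1 enzyme moved in opposite directions after PU.1 knockdown. TARS2 fell to 39.1 and 38.9 CPM in PU.1-knockdown cells, against 63.5 and 62.1 CPM in controls (-0.70 ± 0.064, adjusted p = 6.4e-17). QARS1 fell to 241 and 239 CPM in PU.1-knockdown cells, against 276 and 279 CPM in controls. FARS2 fell to 10.6 and 12.6 CPM in PU.1-knockdown cells, against 14.6 and 15.02 CPM in controls, a call lost without knockdown replicate 1 (adjusted p = 0.107). WARS2, the mitochondrial tryptophanyl enzyme, was the 1 mitochondrial member that rose, to 35.7 and 34.4 CPM in PU.1-knockdown cells, against 22.7 and 21.4 CPM in controls (0.65 ± 0.079, adjusted p = 1.1e-11). MARS2, the methionyl enzyme of mitochondria, fell to 36.7 and 39.7 CPM, against 57.6 and 50.02 CPM in controls. Over the 3 knockdowns, whose controls are separate libraries, 14 cytosolic and 4 mitochondrial members fell in every one, where 14.4% of the 15396 genes tested in all 3 did. TARS3 rose in every one (9.66% of those genes), and SARS1 with 4 mitochondrial members passed in none (15.3%). The 14 include TARS1, WARS1 and NARS1, which did not fall in PSPC1-knockdown OCIAML5 against the PU.1-experiment controls (0.51, 0.49 and 0.043). Scaling by library size alone lost the PU.1-knockdown calls of TARS1, IARS2 and LARS2 (log2 fold changes -0.041, -0.004 and -0.127). It also lost the OCIAML5 PSPC1-knockdown calls of HARS1 and LARS2 (-0.104 and -0.182).

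**Figure D3:**
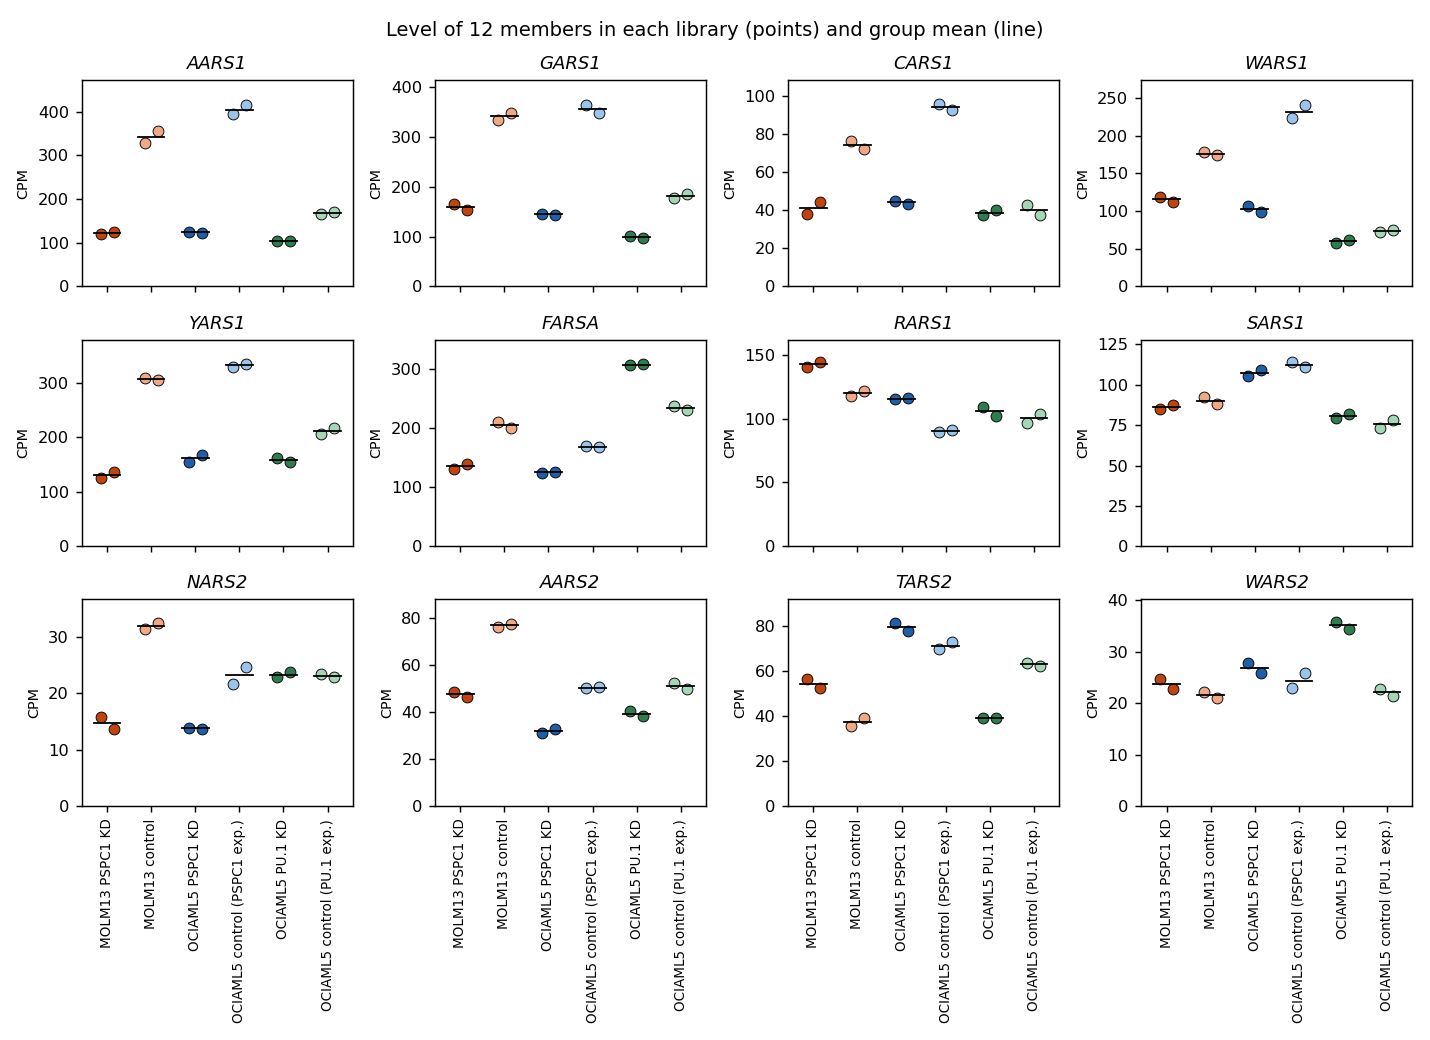
CPM of 12 members in each of the 12 libraries, with points for libraries and a line for the mean of 2; each panel has its own axis from 0, and the groups run from the MOLM13 PSPC1 knockdown at the left to the PU.1-experiment controls at the right. For AARS1, GARS1, CARS1 and WARS1 the PSPC1-experiment controls stand above the PU.1-experiment controls of the same line in every library, with AARS1 at 396 and 415 against 167 and 171 CPM.

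The 2 control groups of OCIAML5 did not have the same synthetase levels. Both carry a control hairpin in the same line, and they differ in experiment, so that run, culture and hairpin batch cannot be told apart. The cytosolic sum was 5545 and 5554 CPM in the PSPC1-experiment controls, against 3982 and 4056 CPM in the PU.1-experiment controls, while the mitochondrial sums were 606 and 622 CPM and 644 and 634 CPM in the same order. Of the cytosolic members, 14 were higher and 4 lower in the PSPC1-experiment controls (median 0.36), against 18.9% and 20.1% of all 17159 genes tested (39% in either direction, median 0.00). Of the mitochondrial members, 3 were higher and 4 lower (median -0.03), and the 7 called became 4 without PU.1-experiment control replicate 1. WARS1 differed most, at 223 and 240.3 CPM in the PSPC1-experiment controls against 72.5 and 75.3 CPM in the PU.1-experiment controls (1.65 ± 0.054, adjusted p = 9.5e-32). AARS1, CARS1 and TARS1 followed at 1.26 ± 0.045, 1.24 ± 0.070 and 1.17 ± 0.044. TARS1 was at 489 and 502 CPM in the PSPC1-experiment controls against 212 and 230.2 CPM in the PU.1-experiment controls. FARSA was the most reduced, at 169 and 167 CPM in the PSPC1-experiment controls against 238 and 231 CPM in the PU.1-experiment controls (-0.48 ± 0.045, adjusted p = 3.6e-13). Among the mitochondrial members called, HARS2 was the most raised (0.41 ± 0.093) and YARS2 the most reduced (-0.38 ± 0.10). The calls of VARS1, TARS3, MARS2 and RARS2 in this comparison were lost without PU.1-experiment control replicate 1 (adjusted p = 0.334, 0.25, 0.114 and 0.133). Those of TARS3 and TARS2 were lost without PSPC1-experiment control replicate 2 (adjusted p = 0.142 and 0.152), and that of TARS2 also without PU.1-experiment control replicate 2 (adjusted p = 0.112).

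**Figure D4:**
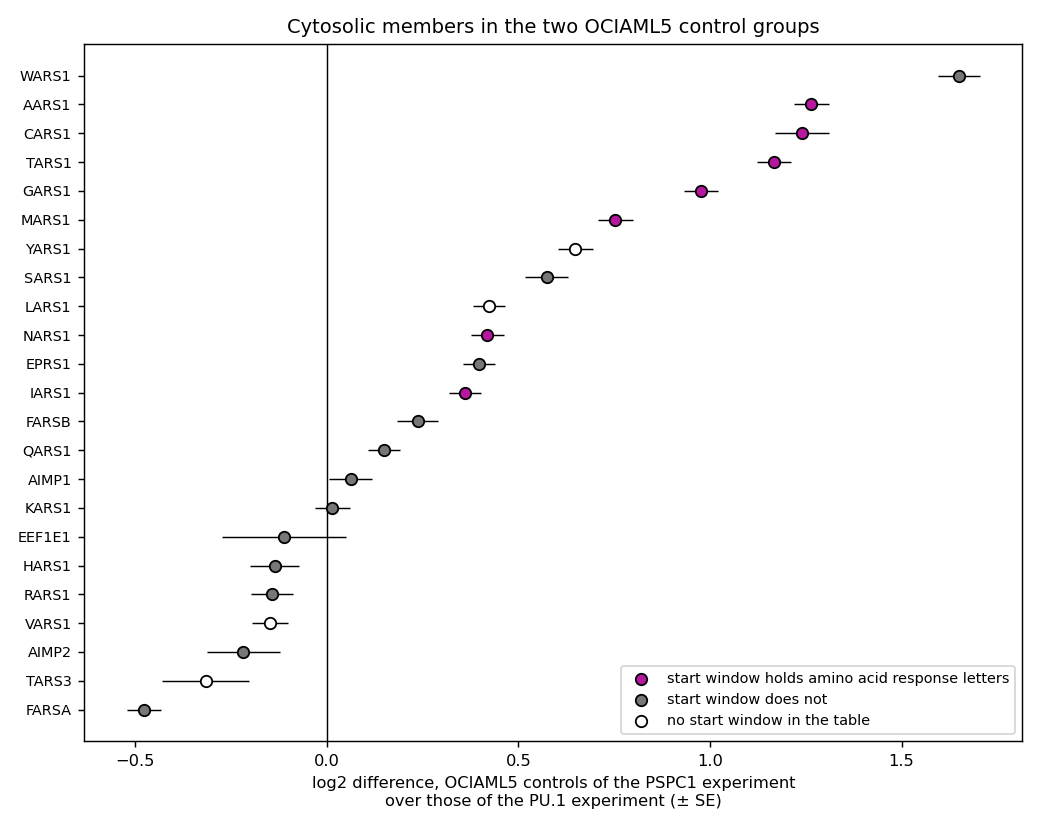
Log2 difference between the OCIAML5 controls of the PSPC1 experiment and those of the PU.1 experiment, with standard errors, for the 23 cytosolic and scaffold genes in order of size; filled magenta points have the amino acid response letters in their start window, grey points do not and open points have no window in the table. The magenta points run from 0.36 (IARS1) to 1.26 (AARS1), and WARS1, without the letters, is highest at 1.65.

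Using the other control group changed some of the PSPC1 results in OCIAML5. The PSPC1-experiment controls enter the PSPC1 comparison, the control comparison and the difference of effects, so these are not independent of each other. Against the PU.1-experiment controls, 14 of the 23 cytosolic members were lower and 6 higher in PSPC1-knockdown OCIAML5 cells (median -0.34), against 32.9% lower and 31.4% higher over all genes, and 8 mitochondrial members were lower and 3 higher. WARS1 turned round, to a log2 difference of 0.49 (adjusted p = 3.6e-11), since its PSPC1-knockdown libraries at 107 and 99.2 CPM lie below their own controls and above the PU.1-experiment controls. TARS1 also turned round (0.51, adjusted p = 4.7e-15), CARS1 and NARS1 no longer passed (0.152 and 0.043, adjusted p = 0.0642 and 0.384), and AARS1 and GARS1 lay below the PU.1-experiment controls by less than they lay below their own controls (-0.44 and -0.31). Against the PSPC1-experiment controls, 18 cytosolic members were lower and 3 higher in PU.1-knockdown cells, where 29.2% of all genes were lower and 26.9% higher, and 7 mitochondrial ones were lower and 2 higher. The knockdown groups themselves were close: the cytosolic sums were 3354 and 3293 CPM with PSPC1 knockdown and 3258 and 3223 CPM with PU.1 knockdown, and those groups too come from separate experiments.

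With each knockdown set against its own controls, the effect differed between PU.1 and PSPC1 in 17 cytosolic members (45.6% of all genes differed), 14 of them higher (less negative or more positive after PU.1 knockdown) and 3 lower, with 22.7% of all genes higher and 22.9% lower. Of the mitochondrial members 3 were higher and 3 lower. CARS1 (1.03 ± 0.10), AARS1 (0.99 ± 0.065), LARS1 (0.85 ± 0.060) and WARS1 (0.84 ± 0.078) had the largest differences upward. The largest downward were those of TARS2 (-0.87 ± 0.091, adjusted p = 8.2e-12), YARS2 (-0.51 ± 0.14) and HARS1 (-0.48 ± 0.092). HARS1 was at 45.5 and 48.4 CPM in PU.1-knockdown cells against 73.2 and 75.7 CPM in their controls, and at 56.9 and 60.4 CPM in PSPC1-knockdown OCIAML5 against 67.1 and 68.2 CPM in theirs. The difference in control levels described above enters these values, and its part in them was not tested.

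The 7 cytosolic members with the amino acid response letters all fell after PSPC1 knockdown in both lines, with the controls of the PSPC1 experiment. Their median log2 fold change was -0.87 in MOLM13 and -1.07 in OCIAML5. The 12 with a window that lacked the letters had medians of -0.51 and -0.40, with 8 of the 12 falling in each line. Of all genes tested, 29.6% fell in MOLM13 and 28.6% in OCIAML5. Against the PU.1-experiment controls, AARS1, GARS1, IARS1 and MARS1 stayed lower in PSPC1-knockdown OCIAML5 (-0.44, -0.31, -0.60 and -0.37). TARS1 was then higher (0.51), and CARS1 and NARS1 did not pass (0.152 and 0.043). The medians with and without the letters were not recomputed with those controls. After PU.1 knockdown 6 of the 7 fell (median -0.53), and 7 of the 12 without the letters (median -0.27), against 30.9% of all genes. In the control comparison, which shares its PSPC1-experiment libraries with the OCIAML5 falls and is not independent of them, all 7 were higher in the PSPC1-experiment controls (median 0.98). Of the 12 without the letters 5 were higher and 2 lower (median 0.04), against 18.9% and 20.1% of all genes. These medians are descriptions with no test, and EEF1E1 and WARS1 fell by as much as some members with the letters. YARS2, the mitochondrial member with the letters, went the other way. It rose after PSPC1 knockdown in OCIAML5 (0.50) and was lower in the PSPC1-experiment controls (-0.38). Among cytosolic members with no window, YARS1 (-1.24 in MOLM13 and -1.02 in OCIAML5), LARS1 (-0.65 and -0.91) and VARS1 (-0.61 and -0.79) fell after PSPC1 knockdown. TARS3, also with no window, rose in both lines.

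Other genes of the same pathways were counted in the same fits. ATF4 itself was at 205 and 198 CPM in PSPC1-knockdown MOLM13, against 393 and 403 CPM in controls, and at 305 and 311 CPM in PSPC1-knockdown OCIAML5, against 371 and 373 CPM in controls. It rose after PU.1 knockdown, to 431 and 425 CPM, against 342 and 334 CPM in controls. Of 26 other genes listed as ATF4 targets in amino acid supply and stress, 25 fell in MOLM13 and 24 in OCIAML5 after PSPC1 knockdown. Their medians were -1.99 and -1.73, and 29.6% and 28.6% of all genes fell. PSAT1, an enzyme of serine synthesis, was among the strongest (-3.25 in MOLM13 and -3.07 in OCIAML5). After PU.1 knockdown 16 of the 26 fell and 7 rose (median -0.33), against 30.9% and 29.5% of all genes. In the control comparison 25 of the 26 were higher in the PSPC1-experiment controls and 1 lower (median 1.27). Of all genes, 18.9% were higher and 20.1% lower. CHAC1, a glutathione-degrading enzyme of that list, was far apart in the control groups, with 34.7 and 32.4 CPM in the PSPC1-experiment controls and 0.581 and 0.820 CPM in the PU.1-experiment controls. It was at 1.83 and 1.11 CPM in PSPC1-knockdown OCIAML5 cells and 0.673 and 0.273 CPM in PU.1-knockdown cells. TRIB3, a pseudokinase induced by ATF4, was at 16.5 and 19.5 CPM in PSPC1-knockdown MOLM13 against 81.4 and 73.8 CPM in controls, and at 13.1 and 13.8 CPM in PSPC1-knockdown OCIAML5 against 35.1 and 37.8 CPM in controls. In the PU.1 experiment TRIB3 was at 15.4 and 18.3 CPM in knockdown cells and 14.4 and 15.04 CPM in controls.

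Genes for other steps in the life of a transfer RNA were counted too. Of 34 genes measured for processing and export, 21 fell and 1 rose in MOLM13 after PSPC1 knockdown (median -0.46). Of all genes, 29.6% fell and 27.6% rose there. In OCIAML5, 22 fell and 2 rose (median -0.46), against 28.6% and 27.6% of all genes. After PU.1 knockdown 21 fell and 2 rose (median -0.29), against 30.9% and 29.5% of all genes. XPOT, the export receptor of transfer RNA, fell by 1.04 and 1.04 in log2 after PSPC1 knockdown in MOLM13 and OCIAML5. In the control comparison 4 of the 34 were higher and 11 lower in the PSPC1-experiment controls, against 18.9% and 20.1% of all genes. Of 6 cytosolic elongation factors, 3 fell and 2 rose in MOLM13, against 29.6% and 27.6% of all genes. In OCIAML5 4 fell and 1 rose, against 28.6% and 27.6% of all genes. Of 20 mitochondrial translation factors, 11 fell in each of the 3 knockdowns, against 29.6% of all genes in MOLM13 and 28.6% in OCIAML5 after PSPC1 knockdown and 30.9% after PU.1 knockdown; 0 rose in MOLM13, and 1 in each OCIAML5 knockdown. Genes of the mitochondrial genome took 12.4% of counts in both PSPC1-knockdown MOLM13 libraries, against 9.32% and 9.86% in controls. They took 14.3% in both PSPC1-knockdown OCIAML5 libraries, against 12.03% and 10.8% in controls, and 10.6% and 9.84% in PU.1-knockdown libraries, against 9.95% and 10.0% in controls. MYC fell after PSPC1 knockdown, to 161 and 154 CPM in MOLM13, against 615 and 608 CPM in controls, and to 189 and 196 CPM in OCIAML5, against 588 and 591 CPM in controls. It was at 615 and 619.8 CPM in PU.1-knockdown cells and 643 and 615 CPM in their controls. The part of these genes in the levels of the synthetases was not tested.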

How the data were processed

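Messenger RNA was sequenced in 12 libraries of MOLM13 and OCIAML5 cells, in 6 groups of 2 set by the titles and treatment labels. The deposited values are raw counts per gene in 2 tables, 8 libraries of the PSPC1 experiment and 4 of the PU.1 experiment. The submitters' processing notes name GRCh38 and 4 tools (HTSeq 2.0.2, STAR 2.7.10a, DESeq2 1.36.0, Trim Galore 0.6.7) without saying what each did. Which annotation was counted, and whether by strand, is not given in the sources. The members and the gene lists were chosen with earlier results of these data known.

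Counts were analysed with edgeR 4.0.16 in R 4.3.3 (filterByExpr, TMM scaling, robust quasi-likelihood F tests), with p-values adjusted by Benjamini-Hochberg over all genes tested and a threshold of 0.05. The 8 libraries of the PSPC1 table were 1 model, the 4 of the PU.1 table another, and the 8 OCIAML5 libraries of both tables were joined for comparisons across experiments. The spread between replicate libraries, as edgeR's coefficient of variation, was 4.73%, 4.08% and 4.50% in these fits. Fold changes are log2 of the first-named group over its reference, with standard errors. CPM values put all 12 libraries on 1 TMM scale and include no length correction; values per kb divide by the exon union in GENCODE v29. Replicate libraries differed by more than counting noise (chi-square per gene 2.61 to 4.96), so none was counted as a duplicate. The procedure was tested on simulated data with seeded fold changes. Members given with every library were the 3 cytosolic and 3 mitochondrial ones with the largest called change in each direction of a comparison, those called in opposite directions, those with the largest differences of effect, and WARS1, TARS3, GARS1, KARS1 and the 3 scaffold genes. Alternatives were DESeq2 1.42.0, RLE and library-size scaling, 2 other filters, a threshold of 0.01, the replicate number as a block, fits on fewer or more libraries, the other OCIAML5 controls and leaving out each library.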

Additional observations from a re-analysis of the deposited data

Results flagged for a closer look

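The response to PSPC1 knockdown differed between the lines, by a test of the difference itself (edgeR quasi-likelihood test, MOLM13 minus OCIAML5, in log2), and the 3 members with the largest called difference in each direction are given. WARS1 fell by less in MOLM13 than in OCIAML5, with a difference of 0.52 (adjusted p = 1.2e-08). QARS1 rose in MOLM13 and did not pass in OCIAML5, with a difference of 0.36 (adjusted p = 2.4e-07). TARS2 rose by more in MOLM13, with a difference of 0.36 (adjusted p = 0.0060), which did not pass without MOLM13 knockdown replicate 1 (0.301, adjusted p = 0.0502) or MOLM13 control replicate 1 (0.273, adjusted p = 0.0859). EEF1E1 fell by more in MOLM13, with a difference of -0.69 (adjusted p = 0.040), which did not pass under 9 alternatives, among them leaving out OCIAML5 knockdown replicate 2 (-0.482, adjusted p = 0.276) and DESeq2 (-0.672, adjusted p = 0.0658). YARS2 passed in OCIAML5, where it rose, and its difference was -0.69 (adjusted p = 0.00059). LARS2 fell by more in MOLM13, with a difference of -0.53 (adjusted p = 0.00051). All these differences use the PSPC1-experiment controls of OCIAML5 and were not recomputed with the other controls. Against the PU.1-experiment controls, YARS2 did not pass in PSPC1-knockdown OCIAML5 (0.094, adjusted p = 0.398) and WARS1 was higher (0.489, adjusted p = 3.6e-11). TARS2, EEF1E1 and LARS2 kept their direction and call in OCIAML5 with those controls, at 0.35, -0.89 and -0.47. With their own controls they were at 0.18, -0.76 and -0.26, which is further from the MOLM13 values of 0.54, -1.46 and -0.79. QARS1 again did not pass in OCIAML5 (0.050).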

How the results depend on the processing

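Of 175 results, each a member called in 1 of the 7 comparisons and recomputed under each alternative, 40 lost their call under at least 1 setting and 4 changed direction. All 4 were in OCIAML5 after PSPC1 knockdown with the controls of the PU.1 experiment: TARS1 at 0.511 and WARS1 at 0.489, which passed, and CARS1 at 0.152 and NARS1 at 0.043, which did not. With those controls 11 mitochondrial members were called in place of 7, and YARS2 was not called (0.094, adjusted p = 0.398). Scaling by library size alone gave 5 mitochondrial calls after PU.1 knockdown in place of 9. No called member changed direction under RLE scaling, library-size scaling or DESeq2. For the difference of the PSPC1 effect between lines, the 11 cytosolic calls were 6 at an adjusted p of 0.01, 7 with no low-count filter and 5 to 11 with 1 library left out. For the OCIAML5 controls, the 7 mitochondrial calls were 4 to 7 with 1 library left out. The cause was not tested.

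Libraries with the same replicate number did not deviate together (correlations of -0.074 to 0.084 over 10685 genes), so no pairing by number was seen. Noise in a single difference of 2 libraries can hide a weak pairing, so this check cannot show that there was none. With the replicate number as a block, the cytosolic and mitochondrial counts of calls were the same in each knockdown comparison (22 and 10 for PSPC1 in MOLM13, 21 and 7 for PSPC1 in OCIAML5, 17 and 9 for PU.1). Between the lines 10 cytosolic members were then called in place of 11, HARS1 dropping out (adjusted p = 0.0519), and between the controls 6 mitochondrial ones in place of 7.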
